A study of Rattus norvegicus with 17 samples.

Results

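ENSRNOG00000058006 is a rat gene whose hippocampal level took a low and a high value among rats, with no rat between them. It was chosen by these values, as 1 gene of the 22664 with a value other than 0 in at least 1 library, out of 32494 listed. The rule placed libraries under 9.5 in a low set and those over 10 in a high set, so the levels below are a description and carry no test. The tables used here pair the identifier with no gene symbol, so neither its product nor its position can be given.

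The study asked how far measurements made on rats of one stock match between laboratories that kept and dissected them separately. RNA-Seq was done on whole hippocampi of male SAS Sprague Dawley rats, 1 rat per library. There were 5 rats at Site #1, 6 at Site #2 and 6 at Site #3 and the labels name no treatment. Age on arrival lay between 8.0 and 8.3 weeks, and harvest fell between days 18 and 27 from then. Rats of Site #1 and Site #2 came from Charles River and were housed singly. Rats of Site #3 came from Harlan (Envigo), were housed in pairs, ate another chow and were kept longer before harvest, and their tissue was dissected in artificial cerebrospinal fluid in place of saline. Vendor, housing, diet, time to harvest and site therefore cannot be told apart at Site #3.

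Sprague Dawley rats are an outbred stock, kept so that animals differ genetically from one another, unlike an inbred strain. The hippocampus holds neurons, astrocytes, microglia, oligodendrocytes and vessels, with choroid plexus and meninges lying against it. A whole-tissue library mixes RNA of all of them, so fewer cells of a type and less RNA per cell cannot be told apart. All levels below are deposited log2 values normalized between libraries. Whether they were scaled by gene length is not given in the sources used here, so a higher value of one gene than of another is not read as more transcripts of it. Where genes are matched by mean value or their values are summed, this is done on the deposited scale.

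At Site #1, ENSRNOG00000058006 had a value of 8.83 in replicate 1, 8.94 in replicate 2, 10.53 in replicate 3, 10.70 in replicate 4 and 10.97 in replicate 5. At Site #2 the lowest value was 10.23, the median 10.86 and the highest 11.56. At Site #3 the lowest was 8.77, the median 8.97 and the highest 9.17. All rats of Site #2 were thus in the high set and all rats of Site #3 in the low set, while Site #1 had 3 rats in the high set and 2 in the low set.

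**Figure D1:**
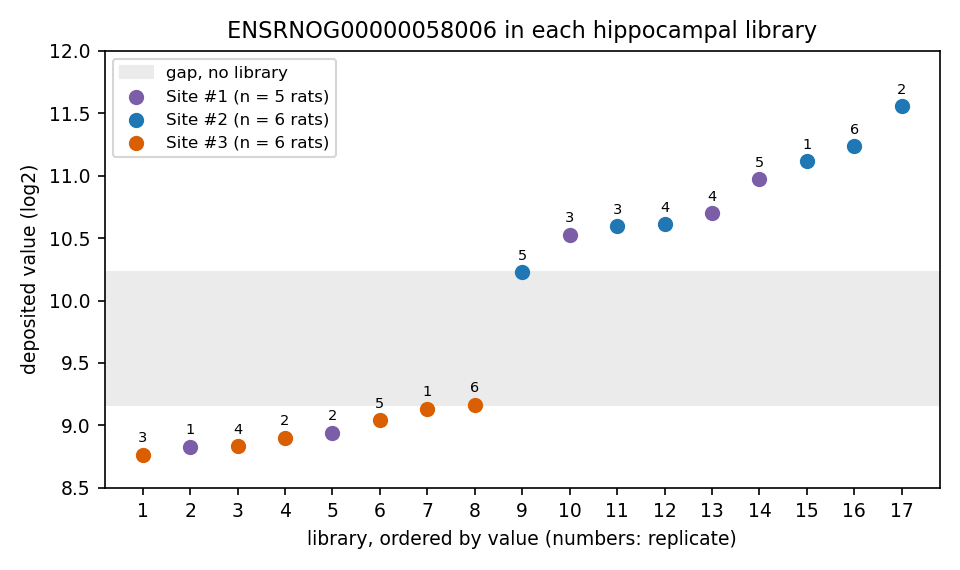
Deposited log2 value of ENSRNOG00000058006 (vertical axis) in each of 17 libraries ordered by value (horizontal axis), colored by site and numbered by replicate. The grey band from 9.17 to 10.23 holds no library, and rats of Site #1 lie on both sides of it.

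In order of their means, Site #3 came lowest with 8.97 ± 0.16 (SD, n = 6). Site #1 followed with 9.99 ± 1.02 (SD, n = 5), and the highest was Site #2 with 10.89 ± 0.49 (SD, n = 6). The range of Site #1 overlapped those of both other sites, whereas Site #2 and Site #3 did not overlap. The mean of Site #1 lay where no rat of that site lay, so it describes none of them.

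The gap between the sets was 1.06, from 9.17 in replicate 6 of Site #3 to 10.23 in replicate 5 of Site #2, which are the values nearest to the limits of the rule. This was 38.0% of the range of the gene over all libraries and corresponds to a ratio of 2.08 after back-transformation. Within Site #1 the gap was 1.59. The high set was the more spread one, with 9 libraries over a range of 1.33, against a range of 0.40 for the 8 libraries of the low set. The largest step between neighbours was 0.32 inside the high set and 0.10 inside the low set, both well short of the gap.

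The spread within sites was set beside that of 2422 genes, itself included, with a mean value within 0.5 of its own mean of 9.95. At Site #1 none of them had a larger SD, which follows from the rule, since it was chosen for having both levels there. At Site #2, 4 of them had a larger SD than its 0.49, and at Site #3, 170 had a larger SD than its 0.16. The rats of Site #2 thus varied for this gene although all were in the high set. At Site #3 its SD was smaller than at Site #2, but still larger than that of 92.9% of these genes. Their median SD at Site #3 was 0.07.

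Libraries could also stand apart for other genes. Genes with a step of at least 0.5 between neighbouring values and at least 3 libraries on each side numbered 42, by limits chosen after the values were seen. ENSRNOG00000058006 ranked 9 among them by the size of the step. The most common division, found in 15 genes, set replicate 5 of Site #1, replicate 3 of Site #2 and replicates 1 and 2 of Site #3 above the rest. Another 13 genes divided the libraries in the same way except that replicate 2 of Site #3 was with the rest. The first division held Col1a1, a chain of type I collagen, Fmod, a collagen-binding proteoglycan, and Slc22a6, an organic anion transporter. The second held Cdkn1c, an inhibitor of cyclin-dependent kinases.

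**Figure D2:**
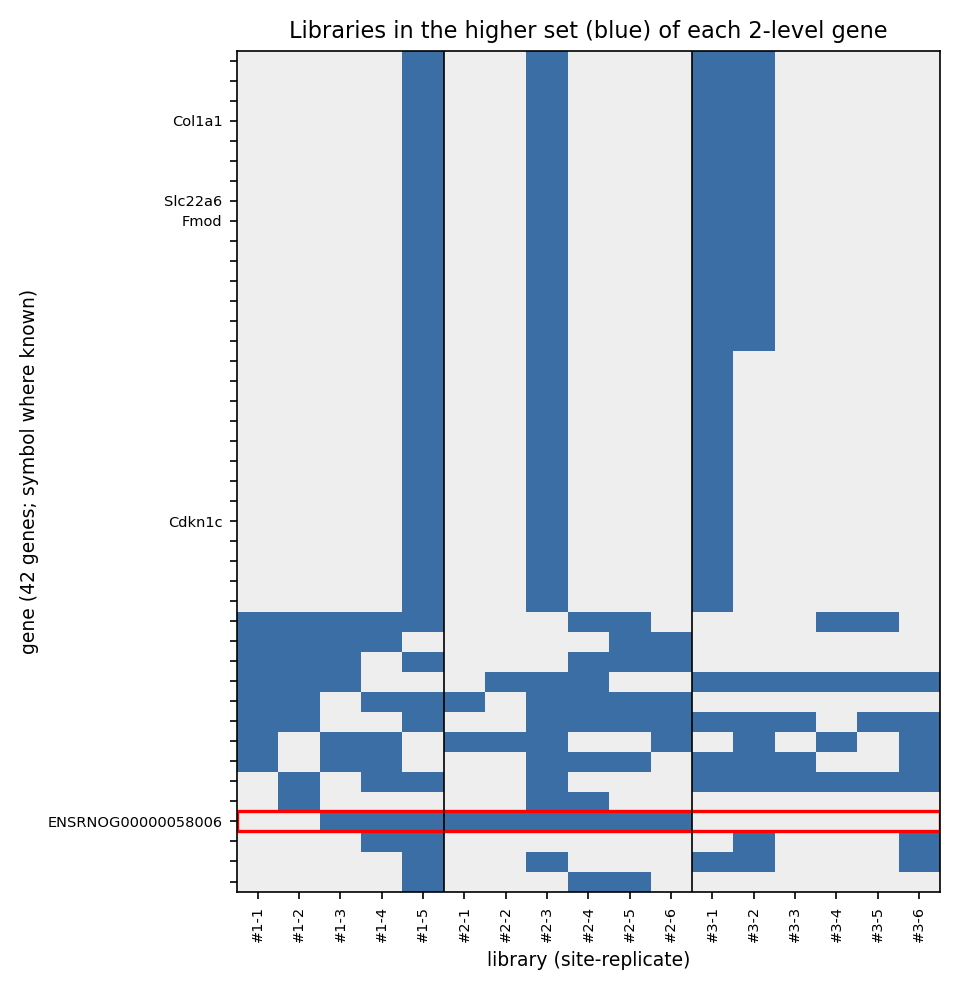
Each row is 1 of 42 genes with 2 levels and each column a library, given as site and replicate, with blue for the higher set and grey for the lower set. The row of ENSRNOG00000058006, outlined in red, has 9 blue libraries, and no other row has the same ones.

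ENSRNOG00000058006 crossed that division. Of the 4 libraries high in Col1a1, replicate 5 of Site #1 and replicate 3 of Site #2 were in its high set and both libraries of Site #3 in its low set. None of these 4 libraries bounds its gap of 1.06, so leaving them out could not change it. Among the 42 genes it was the only one with its set of libraries, and the only one for which Site #2 and Site #3 lay wholly on different sides. That it had these sites on different sides follows from the rule, which chose it as high at Site #2 and low at Site #3. Only the absence of this trait in the other genes does not.

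No other gene followed the same division of all 17 libraries by a gap of at least 0.1, which is 0 of 22663 genes or 0%. With any gap above 0, 9 others did so, or 0.0397%. Of these, 2 ran in the same direction and 7 in the opposite one, and none has a symbol in the tables used here. The 4 identifiers named next are those with the largest gaps in each direction, chosen after their values were seen.

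ENSRNOG00000034126 had the largest of these gaps, -0.07, in the opposite direction. At Site #1 its values were 9.55, 9.75, 9.10, 9.40 and 9.46 in replicates 1 to 5. Rats of Site #2 had a mean of 9.38 ± 0.10 (SD, n = 6), and those of Site #3 one of 9.84 ± 0.28 (SD, n = 6). The libraries low for ENSRNOG00000058006 were thus the higher ones here, but the gap was smaller than the spread among the rats of either site. ENSRNOG00000019262 had a gap of -0.03 in the same sense. In the direction of ENSRNOG00000058006 itself, the gaps were 0.02 for ENSRNOG00000015239 and 0.01 for ENSRNOG00000012454. All were far under its gap of 1.06, and none of the 4 was among the 42 genes with 2 levels.

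**Figure D3:**
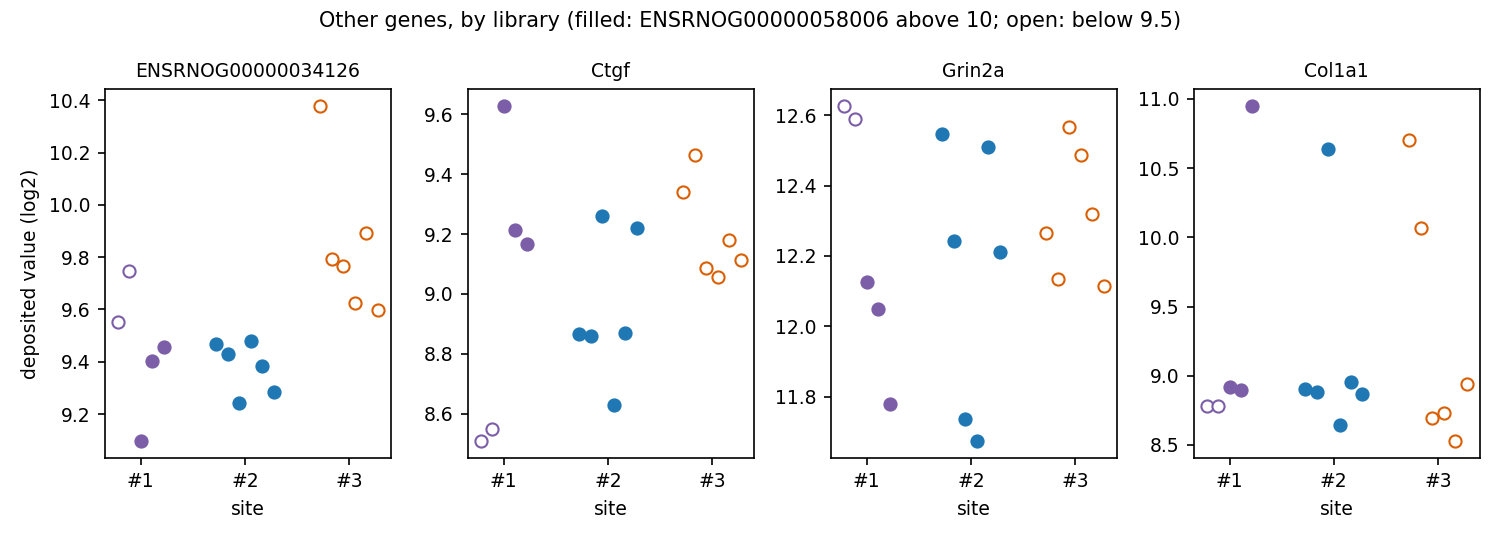
Deposited log2 values (vertical axes, which do not start at 0 and differ between panels) of 4 other genes by site (horizontal axes), 1 point per library, filled where ENSRNOG00000058006 is above 10 and open where it is below 9.5. Open points lie above filled ones throughout for ENSRNOG00000034126 by a narrow margin, and at Site #1 alone for Grin2a. They lie below filled ones at Site #1 alone for Ctgf and, by 0.12, for Col1a1.

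Site #2 and Site #3 did not overlap for 442 genes (1.95% of the 22664 tested), and by a gap of at least 0.1 for 36 (0.159%). ENSRNOG00000058006 had the largest gap of all, and the next was 0.61. It was chosen for being high at Site #2 and low at Site #3, so its rank here is a description only. Among the 36 genes, all libraries of Site #1 lay nearer Site #2 for 13 genes and on both sides for 23. Only 2 of the 36 put the same libraries of Site #1 on each side, ENSRNOG00000058006 and ENSRNOG00000034126.

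Within Site #1, by contrast, many genes divided the rats the same way. With any gap above 0, 9011 of 22663 other genes (39.8%) kept replicates 3, 4 and 5 apart from replicates 1 and 2. Of these, 5765 (25.4%) were higher in replicates 3, 4 and 5 and 3246 (14.3%) were lower there. Their median gap was 0.02 in size, so most of these divisions were narrow. Replicates 1 and 2 were also the closest pair of Site #1 over all tested genes, with a mean absolute difference of 0.061, and the other 9 pairs ranged from 0.068 to 0.114. Sharing this division within Site #1 is thus common and says little about a gene.

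By a gap of at least 0.3, 89 genes (0.393%) divided Site #1 in this way, 25 of them higher and 64 lower in replicates 3, 4 and 5. The largest gap in either direction was that of Ctgf, a secreted matricellular protein. Its values in replicates 1 to 5 of Site #1 were 8.51, 8.55, 9.63, 9.21 and 9.17. Its gap of 0.62 compares with 1.59 for ENSRNOG00000058006. Outside Site #1 Ctgf did not follow: rats of Site #2 had a mean of 8.95 ± 0.24 (SD, n = 6), and those of Site #3 one of 9.21 ± 0.16 (SD, n = 6).

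Grin2a, a subunit of the NMDA-type glutamate receptor, had the largest gap in the opposite direction among genes with a symbol, -0.47. Its values were 12.63, 12.59, 12.13, 12.05 and 11.78 in replicates 1 to 5 of Site #1. Elsewhere its mean was 12.15 ± 0.37 (SD, n = 6) for Site #2 and 12.31 ± 0.18 (SD, n = 6) for Site #3, and the rats of these sites overlapped. Ctgf and Grin2a were the genes with a symbol among the 10 largest gaps in each direction.

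The remaining 9 genes with a symbol were named after their values were seen. Higher in replicates 3, 4 and 5 were Adamts2, a procollagen peptidase, by 0.34 and Scarf2, a scavenger receptor family member, by 0.31. Among those lower there, Cacna1e and Cacna2d1, subunits of voltage-gated calcium channels, had gaps of -0.37 and -0.34. Adcy9, an adenylyl cyclase, Atp2b1, a calcium pump of the plasma membrane, and Epha4, an ephrin receptor, had gaps of -0.33, -0.33 and -0.32. Frem3, an extracellular matrix protein, and Nt5dc3 had gaps of -0.31 and -0.30.

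Sites #2 and #3 had no part in choosing these 89 genes, so the difference between those sites could be tested for them. By limma with Benjamini-Hochberg adjustment over 22664 genes, 239 genes (1.05%) differed between Site #2 and Site #3, of which 119 (0.525%) were lower and 120 (0.529%) higher at Site #3. The count was 485 among genes with a mean of at least 5, 333 without replicate 1 of Site #2, and 81 to 153 without any 1 of the other 11 libraries. It was 29 without the 4 libraries high in Col1a1. After median centring 160 were lower and 73 higher at Site #3. Of the 89 genes, 0 were among them, though some came close to the threshold. The lowest adjusted p by limma was 0.0505 among the 25 genes higher in replicates 3, 4 and 5. That gene had a Site #1 gap of 0.39 and was lower at Site #3 by a difference of -0.81, as ENSRNOG00000058006 was. Among the 64 genes lower in these replicates the lowest adjusted p by limma was 0.0539, in a gene higher at Site #3 by 0.14. At an unadjusted p under 0.05 there were 13 of 89 (14.6%), against 14.8% of all tested genes, and 6 of the 13 had the direction of ENSRNOG00000058006. Under the alternatives tried, 0 to 3 genes split at Site #1 differed in that direction. The genes that shared its division at Site #1 thus did not differ between the other sites more often than genes in general in this fit.

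**Figure D4:**
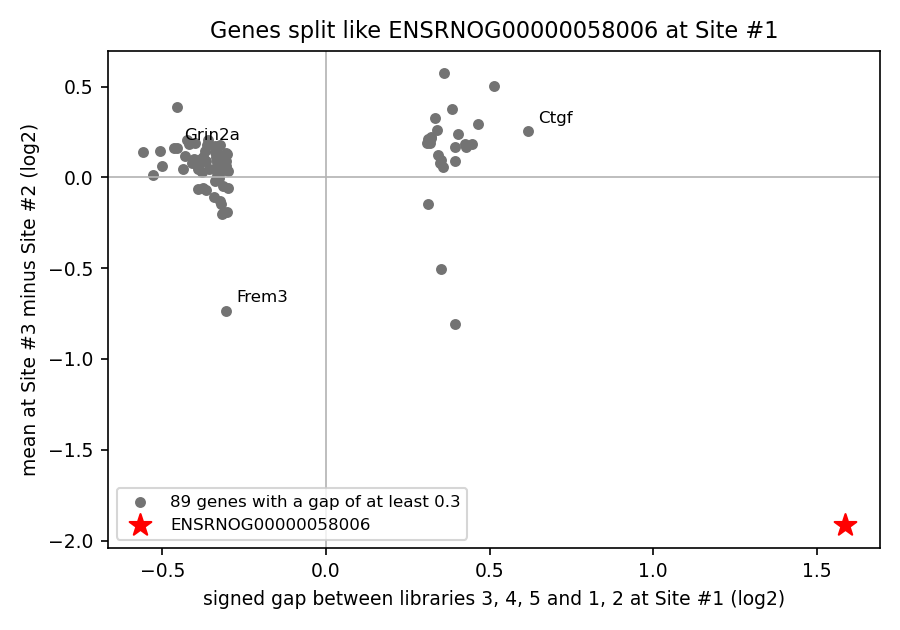
Each grey point is 1 of 89 genes split at Site #1, with its signed gap between replicates 3, 4, 5 and replicates 1, 2 of Site #1 (horizontal axis, log2) and its mean at Site #3 minus that at Site #2 (vertical axis, log2). The red star is ENSRNOG00000058006, shown as a description, at a gap of 1.59 and a difference of -1.92.

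Of the 89 genes, 72 (80.9%) had a higher mean at Site #3 than at Site #2, whichever way they ran at Site #1, against 50.5% of all tested genes. After median centring the number was 69, against 28.3% of all tested genes, and without the 4 libraries high in Col1a1 it was 62, against 51.8%. Of the 25 genes higher in replicates 3, 4 and 5, 22 had a higher mean at Site #3 and 3 a lower one, with a median difference of 0.19 between Site #3 and Site #2. This is opposite to ENSRNOG00000058006, whose mean was lower at Site #3. Of the 64 genes lower in these replicates, 50 had a higher mean at Site #3 and 14 a lower one, with a median difference of 0.08. By sign alone, those 50 were reversed from ENSRNOG00000058006 both at Site #1 and between the other sites. A higher mean at Site #3 was common to both directions, so it does not set them apart. Of the 64 genes, 8 had an unadjusted p under 0.05 by limma. With the 50 counted as following ENSRNOG00000058006, 53 of the 89 genes had its direction by sign. The median over all tested genes was 0.000148.

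The reverse reading began from the 238 other genes that differed between Site #2 and Site #3. At Site #1, 10 of them divided the rats like ENSRNOG00000058006 in the same direction. Of the 118 lower at Site #3, 5 (4.24%) were higher in replicates 3, 4 and 5, against 25.4% of all other genes, and 36 (30.5%) were lower there, against 14.3%. Of the 120 higher at Site #3, 5 (4.17%) were lower in replicates 3, 4 and 5, against 14.3% of all other genes, and 26 (21.7%) were higher, against 25.4%. The count of 239 fell to 29 without the 4 libraries high in Col1a1, an alternative added after the values were seen, and that of 10 fell to 5. The count of 10 was 31 among genes with a mean of at least 5. It was 37, 29, 19, 29 and 19 without replicates 1 to 5 of Site #1 in turn, 28 without replicate 1 of Site #2 and 6 without replicate 6 of Site #3.

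P2rx4, an ATP-gated ion channel, was the 1 gene with a symbol among the 10 and was named after its values were seen. Its values at Site #1 were 9.47, 9.46, 9.48, 9.82 and 9.54 in replicates 1 to 5, a gap of 0.01. It was lower at Site #3, with 9.15 ± 0.06 (SD, n = 6) against 9.46 ± 0.10 (SD, n = 6) for Site #2 (difference -0.31, SE 0.05, adjusted p = 0.0133 by limma). It passed in 18 of 20 alternative fits, with adjusted p values by limma from 0.00323 to 0.0591, and missed the threshold without the 4 libraries high in Col1a1 (difference -0.29, adjusted p = 0.0502 by limma) and with the replicate number as a block (difference -0.31, adjusted p = 0.0591 by limma). All 5 libraries of Site #1 lay above every library of Site #3 for P2rx4, and replicate 4 stood apart from the other 4 libraries of Site #1.

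Markers of the cell types of the tissue were set beside the gene. Of 73 markers, 22 could be paired with an identifier and 51 could not. None of the 22 divided all 17 libraries like ENSRNOG00000058006, and none divided Site #1 by a gap of at least 0.3. With any gap, 8 of 22 (36.4%) divided Site #1, against 39.8% of all genes. These were C1qa and Pycard of 6 microglial markers, Aldh1l1 of 4 astrocytic ones, Rbfox3 of 5 neuronal ones, Aqp1 of 2 of the choroid plexus, Pdgfrb of 2 of vessels, and Cers2 and Col1a1, the only paired markers of oligodendrocytes and of meningeal fibroblasts. Only Rbfox3 was lower in replicates 3, 4 and 5. The 1 dentate gyrus marker paired, C1ql2, overlapped, and no marker of blood or of neuronal activity could be paired.

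The summed level of the microglial markers, to which Csf1r added most over all libraries, was 12.83, 12.99, 13.03, 13.10 and 12.92 in replicates 1 to 5 of Site #1. That of the astrocytic markers, to which Gfap added most, was 16.50, 16.58, 16.46, 16.63 and 16.46. For both sums, replicates 1 and 2 overlapped replicates 3, 4 and 5.

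Other lists did divide Site #1. The summed level of the 5 neuronal markers, to which Grin1 added most, was 16.32, 16.25, 16.20, 16.20 and 16.21 in replicates 1 to 5, higher in replicates 1 and 2. That of the 2 markers of vessels, to which Flt1 added most, was 11.77, 11.80, 11.84, 11.91 and 11.92, lower in replicates 1 and 2. Cers2 and Col1a1, each standing alone for its list, were also lower there. The gap was 0.01 for Cers2 and 0.12 for Col1a1, and 39.8% of all other genes divided Site #1 by some gap. These sums thus divided Site #1 like ENSRNOG00000058006 by margins far under its gap of 1.59, and their part in its level was not tested. They did not follow it elsewhere, since the libraries of Site #2 and Site #3 overlapped for each. The 2 choroid plexus markers, F5 and Aqp1, had sums of 6.39, 6.62, 6.61, 6.61 and 6.87 and overlapped.

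Replicate 1 of Site #3 stood apart from all other libraries for the choroid plexus markers. Their sum was 12.11 there and lay between 6.32 and 6.93 in the other libraries, with F5 at 12.04 and Aqp1 at 7.74 in that library. For ENSRNOG00000058006 this library had 9.13, inside the range of Site #3. It does not bound the gap of 1.06, so leaving it out could not change that gap.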

How the data were processed

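RNA-Seq values of 17 hippocampal libraries, 1 rat each, were assigned to sites from the sample titles. The authors used Trimmomatic for trimming, HISAT2 for alignment to rn6, featureCounts for counts per gene and DESeq2 for their comparisons; versions are not given in the sources used here. The deposited values are on a log2 scale, a unit read from the values (-2.28 to 20.22), and the authors' normalization across libraries is not named in the sources used here. Such a step can shrink differences of low genes, so back-transformed ratios are approximate. The files hold no counts, so the depth of each library cannot be read from them and no counting interval is given; the number of rats limits the precision.

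Genes at exactly 0 in all libraries (9830) were left out. A gene followed the division where every library of one set lay above every library of the other, and the gap is the distance between the sets, negative where the high set of ENSRNOG00000058006 was the lower one. No mean or test was computed over the sets, since they come from measured values. Site #2 and Site #3 were compared with limma 3.58.1 in R 4.3.3 (lmFit, eBayes with trend, two-sided, adjusted p under 0.05), without Site #1 and without a block. Python 3.11.15 was used for the rest. The limma fit and the search for divisions were tested on simulated data.

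The members and lists were chosen with earlier results of these data known. The rule for named genes took the gene itself, up to 10 genes dividing all libraries by at least 0.1, the 10 largest gaps in each direction at Site #1, those of them that also differed between Site #2 and Site #3, and the markers of microglia, astrocytes, neurons, oligodendrocytes, dentate gyrus, choroid plexus, meningeal fibroblasts, vessels, blood and neuronal activity. It allowed 2 identifiers without a symbol in each direction, which would have come from Site #1; those of the genes dividing all libraries by smaller gaps were printed in their place, a departure made after the values were seen. Symbols were paired with 1425 tested genes through tables of the study, which list selected genes only. Alternatives were quantile normalization, median centring, a filter on the mean, other gaps, other limma settings, a replicate block and leaving out libraries.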

Additional observations from a re-analysis of the deposited data

Results flagged for a closer look

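Of 63 groups, 21 named genes at 3 sites each, 9 had a lowest or highest library far from the others by Dixon's criterion. Chance gives about 1 in 20, but 7 of the 9 were in Col1a1, Fmod, Slc22a6 and Cdkn1c, which were named for having libraries that stand apart, so the number cannot be read against that share. ENSRNOG00000058006 was not among them at any site. Col1a1 was 10.95 in replicate 5 of Site #1, where the others lay between 8.78 and 8.92, and 10.64 in replicate 3 of Site #2, where the others lay between 8.65 and 8.95. The same libraries were the high ones for Fmod, at 9.98 and 9.42, and for Slc22a6, at 7.91 and 8.06. Cdkn1c was 8.35 in replicate 3 of Site #2. P2rx4 was 9.82 in replicate 4 of Site #1, where the others lay between 9.46 and 9.54, and 9.65 in replicate 3 of Site #2.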

How the results depend on the processing

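The gap of ENSRNOG00000058006 was 1.07 after quantile normalization and 1.08 after median centring. It ranged from 1.06 to 1.36 when each library was left out in turn, the highest without replicate 5 of Site #2. For ENSRNOG00000058006, as for any gene, leaving out a library can only keep or widen the gap, so the lower end was fixed beforehand. Other genes following its division of all libraries numbered 0, or 9 with any gap, 2 without the 4 libraries high in Col1a1, and 0 to 2 with 1 library left out. The 89 genes split at Site #1 became 608 with a gap of at least 0.15, 6 with one of at least 0.5, 224 without the 4 libraries, and 144 to 366 with 1 library of Site #1 left out, since fewer libraries divide more easily.

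The 239 genes differing between Site #2 and Site #3 became 485 with a mean of at least 5 and 29 without the 4 libraries. Leaving out 1 library gave 333 without replicate 1 of Site #2 and 81 to 153 without any of the other 11, with 81 without replicate 6 of Site #3; the cause was not tested. Of the calls, 49.8% were lower at Site #3, 68.7% after median centring and 27.6% (8 of 29) without the 4 libraries. Equal replicate numbers name different rats. The same-number correlation of deviations between Site #2 and Site #3 ranged from -0.418 to 0.196, over 0.1 in 3 of 6 pairs, and 1 of 6 rats of Site #2 correlated best with its own number. With the replicate block 43 genes were called and the 10 that also divided Site #1 in the same direction became 4.

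Those 10 became 31 with a mean of at least 5, 5 without the 4 libraries and 6 to 37 with 1 library left out. The 0 genes split at Site #1 that also differed in that direction became 1 after quantile normalization, 2 after median centring, 3 with a mean of at least 5, and 1 each with a gap of at least 0.15, array weights or no trend, and 0 to 3 with 1 library left out. The rank of 9 among genes with 2 levels ranged from 2 to 12 with 1 library left out.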

Other observations

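Among genes with at least 3 libraries on each side of the step, that of ENSRNOG00000058006 was not the largest. The largest, 1.48, set 7 libraries above the other 10 and belonged to a gene with a mean of 7.98 and no symbol in the tables used here. In all, 14 of the 16 divisions seen among the 42 genes with 2 levels were each held by 1 gene.

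These values leave limits. The sets come from 17 rats and 1 tissue, the gene has no symbol here, and its reads could not be inspected, so reads shared with a similar gene were not tested. Genotypes were not analysed here. Vendor and site cannot be told apart for Site #3, while Site #1 and Site #2 shared a vendor and differed in how many rats had the high level.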
